A study of Mus musculus with 18 samples.

Results

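Egr1, Egr2, Egr3 and Egr4, which encode the early growth response transcription factors, and Nab1 and Nab2, which encode the corepressors that bind them, were followed through cultured mouse cortical astrocytes stimulated through designer receptors. They were taken as a gene family and its partners, found by matching Entrez identifiers to mouse symbols in both tables of estimated counts, and make up 6 of the 22078 genes listed. RNA was sequenced in 18 libraries, 3 per group in 6 groups, after selection for poly-A tails. The cells had been transfected with a plasmid for a designer receptor (DREADD), a mutated muscarinic receptor that answers the synthetic ligand deschloroclozapine (DCZ), or with a plasmid for a fluorescent protein. DCZ at 8 µM was given for 90 min, 7 days after transfection, in every group, controls included. The series asks which genes such receptors switch on in astrocytes and what remains 3 days later.

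At 90 min the groups carried hM3Dq, which couples to Gq, rM3Ds, which couples to Gs, hM4Di, which couples to Gi, or EGFP as the control. At 3 days, after a change to medium without ligand at 90 min, the groups carried hM3Dq or mCherry as the control. No group carried a receptor without DCZ, and no group went without DCZ. The promoter on the plasmids, the share of cells transfected and the strain and age of the mice are not given in the sources used here. The labels do not say that libraries of a group came from separate cultures, so p-values measure the spread between these libraries, which may be technical.

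Egr genes are immediate-early genes: their transcription starts within minutes of a stimulus, without new protein being made. The ERK kinase cascade acts on ternary complex factors that sit with serum response factor (SRF) on CArG boxes, and CREB acts on cAMP response elements, both found near the start of such genes. The Egr proteins bind GC-rich DNA through zinc fingers and carry the signal on to slower genes, while Nab1 and Nab2 bind Egr1, Egr2 and Egr3 through a repression domain that Egr4 lacks and recruit the NuRD complex through Chd4. In nervous tissue Egr1 and Egr3 are best known as activity genes of neurons, and Egr2 as the driver of myelin genes in Schwann cells.

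The sequence just upstream of the start is shown for Egr2 and Egr4, the called members with the largest fold changes at 90 min, and for Nab1, the corepressor gene with matches to the Egr binding sequence. Each run is the 250 bases that end at the base before the annotated start, 5′ to 3′ on the strand of the gene, from RefSeq on build GRCm38.p6, which is not the mm39 build of the counts. Promoters were found for 4 of the 6 members, and Egr1 and Egr3 are named only. The Egr2 run is chr10:67537619-67537868 on the plus strand, the Egr4 run is chr6:85513590-85513839 on the minus strand, and the Nab1 run is chr1:52500449-52500698 on the minus strand. Capitals mark matches, on either strand, to the CArG box, to TGACG, the core of the cAMP response element, and to GCGNGGGCG, the Egr binding sequence.
Egr2: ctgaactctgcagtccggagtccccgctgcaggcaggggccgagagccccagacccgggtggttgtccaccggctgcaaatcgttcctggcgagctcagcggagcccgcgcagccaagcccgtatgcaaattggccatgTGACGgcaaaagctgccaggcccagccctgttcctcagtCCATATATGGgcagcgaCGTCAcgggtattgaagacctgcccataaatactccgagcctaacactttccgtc
Egr4: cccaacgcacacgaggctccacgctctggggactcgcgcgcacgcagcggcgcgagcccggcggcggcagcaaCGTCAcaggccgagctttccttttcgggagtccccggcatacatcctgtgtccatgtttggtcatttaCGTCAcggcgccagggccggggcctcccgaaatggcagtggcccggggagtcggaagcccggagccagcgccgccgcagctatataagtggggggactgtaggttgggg
Nab1: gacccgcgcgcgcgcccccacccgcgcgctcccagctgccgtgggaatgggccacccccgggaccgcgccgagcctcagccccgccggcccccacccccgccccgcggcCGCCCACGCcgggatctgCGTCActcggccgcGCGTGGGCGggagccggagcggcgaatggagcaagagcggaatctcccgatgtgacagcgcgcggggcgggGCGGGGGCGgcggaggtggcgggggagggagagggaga

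The Egr2 window held a CArG box at -72 to -63, counted back from the start, and TGACG matches at -111 on the plus strand and at -55 on the minus strand. The Egr4 window held TGACG matches at -177 and -109, both on the minus strand, and no CArG box. The Nab1 window held GCGNGGGCG at -141, -109 and -38 and a TGACG match at -123. The Nab2 window, chr10:127666704-127666953 on the minus strand, held none of these. Of 32851 promoter windows of the same length, 1.47% held a CArG box, 17.8% held TGACG, 1.55% held the full TGACGTCA, whose matches are counted under TGACG too, and 4.7% held GCGNGGGCG. A match describes the letters in this window only.

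Totals were 16.1 to 25.2 M estimated counts per library for 90 min and 16.6 to 19.7 M per library for 3 days. Levels are given as estimated counts per 1000000 of each library's own total (CPM), where a floor of 3 counts stands at 0.119 to 0.187 CPM at 90 min and at 0.152 to 0.181 CPM at 3 days. EGFP 1, rM3Ds 2 and rM3Ds 3 stood apart from the other 90 min libraries on the first principal component (52.5% of the variance), with cell cycle genes above the mean of the 12 libraries by a median of 2.25, 1.43 and 1.41 (log2), and mCherry 3 stood apart at 3 days (56.7% of the variance). At 90 min the libraries that stood apart scored -65.5 to -53.3, hM4Di 1 scored -8.63 and the rest 17.5 to 25.5. All 12 astrocyte markers lay above the floor in every library, though Gfap reached only 1.70 to 22.7 CPM. Markers of fibroblasts and mural cells summed to 1969 to 3523 CPM, among them Col1a1 at 663 to 1906 CPM and Pdgfrb at 282 to 527 CPM, while defining markers of microglia (Cx3cr1, P2ry12, Ptprc), oligodendrocytes (Olig2, Mog, Mag) and neurons (Rbfox3, Snap25, Syt1) lay at or near 0. In bulk RNA, a change in the number of responding cells and a change in RNA per cell cannot be told apart.

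Compared per kilobase of annotated exon, each corepressor gene averaged more than each Egr gene, and Nab2 was the highest of the 6. Nab2 averaged 99.7 CPM per kb in hM3Dq libraries and 96.8 CPM per kb in EGFP libraries, and Nab1 averaged 22.4 CPM per kb in hM3Dq libraries and 21.9 CPM per kb in EGFP libraries. Egr1 averaged 12.02 CPM per kb in hM3Dq libraries and 2.30 CPM per kb in EGFP libraries. In both groups Egr1 was followed by Egr2, then Egr3 and Egr4, and the libraries of Egr3 and Egr4 overlapped in level. The 4 Egr genes summed to 25.3 ± 5.08 CPM per kb in hM3Dq, 4.64 ± 1.75 in rM3Ds, 7.23 ± 4.34 in hM4Di and 3.69 ± 1.25 in EGFP libraries (SD, n = 3 each). The sum of Nab1 and Nab2 was 4.18 to 6.12 times the Egr sum in hM3Dq libraries, 19.6 to 36.02 times in rM3Ds, 8.45 to 32.4 times in hM4Di and 23.6 to 40.4 times in EGFP libraries. The hM3Dq libraries thus had the lowest ratios at 90 min, without overlap with the other groups.

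**Figure D1:**
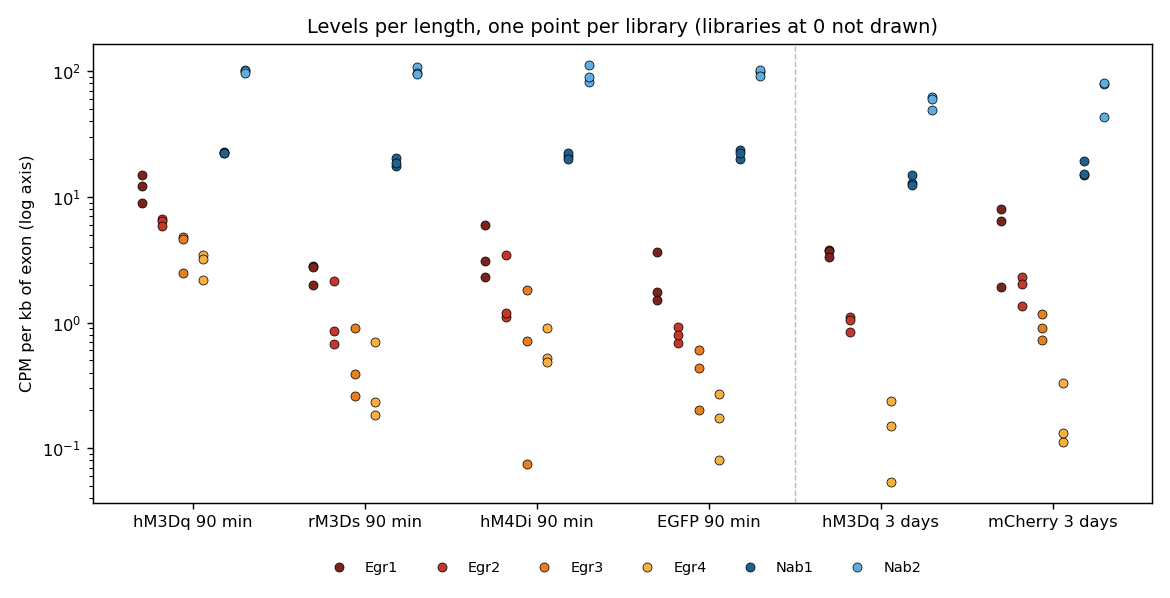
Level per kilobase of annotated exon (CPM per kb, log axis) of each member, one point per library in the 6 groups, with libraries at 0 not drawn. Nab2 and Nab1 lie above the Egr genes in every group, and the Egr genes lie higher in hM3Dq libraries at 90 min than in the other 90 min groups.

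At 90 min, 3 of the 4 Egr genes were higher with hM3Dq than with the EGFP control, and neither Nab gene was. Egr1, Egr2 and Egr4 passed the test, at log2 fold changes of 2.40, 3.03 and 4.08, and Egr3 had a fold change of the same order that did not pass. Of 13584 genes tested, 0.758% were called higher. With the replicate number as a block, the same 3 members passed, and 66 of all genes were called in place of 107. All 3 hM3Dq libraries lay above all 3 EGFP libraries for 4 of the 6 members, the 4 Egr genes, as they did for 6.06% of all genes.

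Egr1, the founding member of the family, had 54.8, 66.8 and 40.1 CPM in hM3Dq 1, 2 and 3, against 16.4, 7.85 and 6.73 CPM in EGFP 1, 2 and 3. The groups did not overlap, and EGFP 1 was the highest control. The means were 53.9 ± 13.4 CPM with hM3Dq and 10.3 ± 5.31 CPM with EGFP (SD, n = 3 each), a log2 fold change of 2.40 ± 0.42 (SE) with an adjusted p of 0.0269 by edgeR's quasi-likelihood test. EGFP 1 also had the highest summed cell cycle genes of the 12 libraries, at 749 CPM, and without it the Egr1 fold change was 2.94 with an adjusted p of 0.00979.

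Egr2, the factor of the myelin programme in Schwann cells, had 22.7, 21.98 and 19.97 CPM in hM3Dq 1, 2 and 3, against 2.32, 3.11 and 2.69 CPM in EGFP 1, 2 and 3. Both groups were tight and lay far apart, with EGFP 1 the lowest of its group here. The means were 21.5 ± 1.41 CPM with hM3Dq and 2.71 ± 0.396 CPM with EGFP (SD, n = 3 each), a log2 fold change of 3.03 ± 0.51 (SE, adjusted p = 0.0210, edgeR).

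Egr4, the family member without the Nab-binding domain, was the rarest and changed most. It had 7.40, 6.81 and 4.68 CPM in hM3Dq 1, 2 and 3, against 0.372, 0.577 and 0.175 CPM in EGFP 1, 2 and 3. The control libraries lay close to the floor, and every hM3Dq library lay above every other library at 90 min. The log2 fold change was 4.08 ± 0.56 (SE, adjusted p = 0.00564, edgeR), and it passed without any one of the 6 libraries, at adjusted p values of 0.0168 to 0.0349.

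Egr3, an Egr1 relative that is commonly induced beside it, had 21.1, 20.2 and 10.99 CPM in hM3Dq 1, 2 and 3, against 2.66, 0.881 and 1.92 CPM in EGFP 1, 2 and 3. The groups did not overlap, and the SD was 32.1% of the mean with hM3Dq and 49.0% with EGFP, against 102% with hM4Di, whose libraries share the fit. Its log2 fold change of 3.28 ± 0.87 (SE, 95% interval 1.36 to 5.20) had an adjusted p of 0.201 in the fit of all 4 groups, against 0.0407 where only hM3Dq and EGFP libraries were fitted and 0.00217 by DESeq2.

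**Figure D2:**
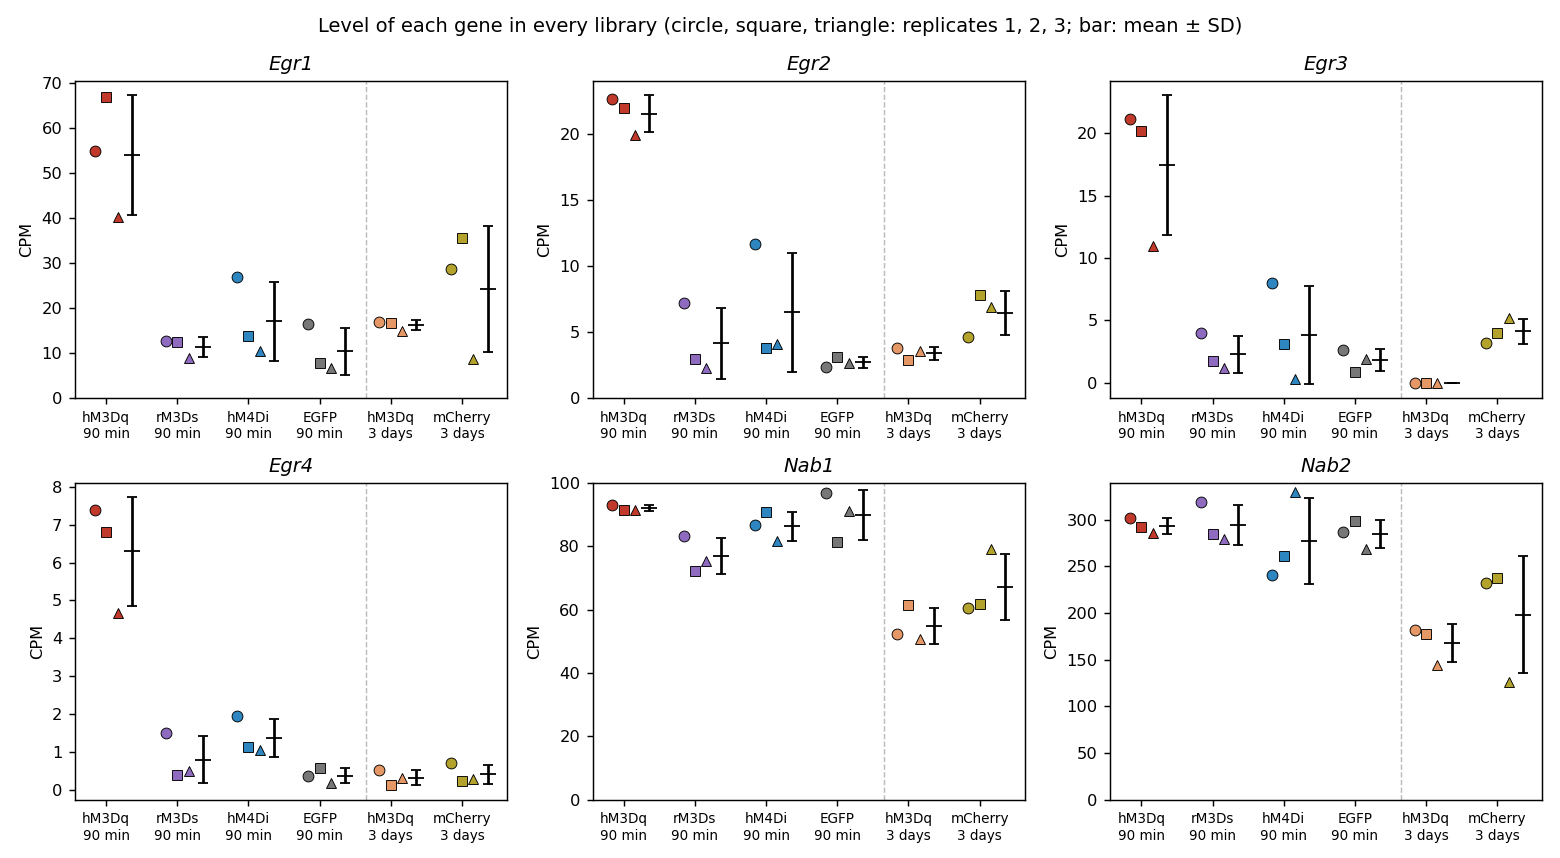
CPM of each member in every library (linear axes, 1 panel per gene), by group, with circle, square and triangle for replicates 1, 2 and 3 and a bar for mean ± SD (n = 3). The hM3Dq libraries at 90 min are the highest of the 12 for each Egr gene (Egr1, 40.1 to 66.8 CPM), Nab1 and Nab2 show no such step, and Egr3 is at 0 in the 3 hM3Dq libraries at 3 days.

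The calls for Egr1 and Egr2 depended on single libraries. Without any 1 of the 5 libraries other than EGFP 1, the adjusted p of Egr1 was above 0.05, reaching 0.146 without EGFP 2, and Egr2 did not pass without any 1 of the 6, at 0.0624 to 0.114, with log2 fold changes of 2.17 to 2.59 for Egr1 and of 2.94 to 3.14 for Egr2 in these fits. Without a filter on low counts the adjusted p of Egr1 was 0.0740. Of 12 alternative fits of this comparison, those with a library left out included, Egr1 passed in 5, Egr2 in 6, Egr3 in 2 and Egr4 in 12.

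Relative to each other, Egr1 and Egr4 had different weights in hM3Dq and EGFP libraries. Egr1 made up 45.0% to 51.2% of the summed Egr level per kilobase in hM3Dq libraries and 53.4% to 71.5% in EGFP libraries, and Egr4 made up 10.9% to 12.7% in hM3Dq libraries and 2.90% to 8.56% in EGFP libraries. Neither pair of ranges overlapped, while those of Egr2 and Egr3 did, and no test was made of these shares. The Egr4 shares with EGFP rest on 3 to 10 counts per library. In hM4Di libraries Egr1 made up 49.4% to 56.9% and Egr4 7.43% to 11.9%, both overlapping the hM3Dq ranges. In rM3Ds libraries Egr1 made up 43.2% to 65.8%, which overlapped as well, and Egr4 4.36% to 10.6%, which did not.

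Neither corepressor gene passed the test, and the hM3Dq and EGFP libraries overlapped for both. Nab1 had 93.1, 91.4 and 91.5 CPM in hM3Dq 1, 2 and 3, against 96.9, 81.3 and 91.1 CPM in EGFP 1, 2 and 3, so that the hM3Dq libraries lay inside the control range. Its log2 fold change was 0.07 ± 0.09 (SE, adjusted p = 0.963, edgeR), with a 95% interval of -0.14 to 0.28. Nab2, which Egr1 is known to induce in other cells, had 302, 292 and 285 CPM in hM3Dq 1, 2 and 3, against 287, 299 and 269 CPM in EGFP 1, 2 and 3. The groups overlapped, with a log2 fold change of 0.08 ± 0.11 (SE, 95% interval -0.16 to 0.32, adjusted p = 0.963, edgeR). Nab2 and Stat6, a cytokine-responsive factor, lie on opposite strands and overlap at their annotated 3′ ends, and whether counting used strand is not given in the sources used here, so the split of reads between them is uncertain. Stat6 had a log2 fold change of 0.10 ± 0.24 (SE) in the same comparison.

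**Figure D3:**
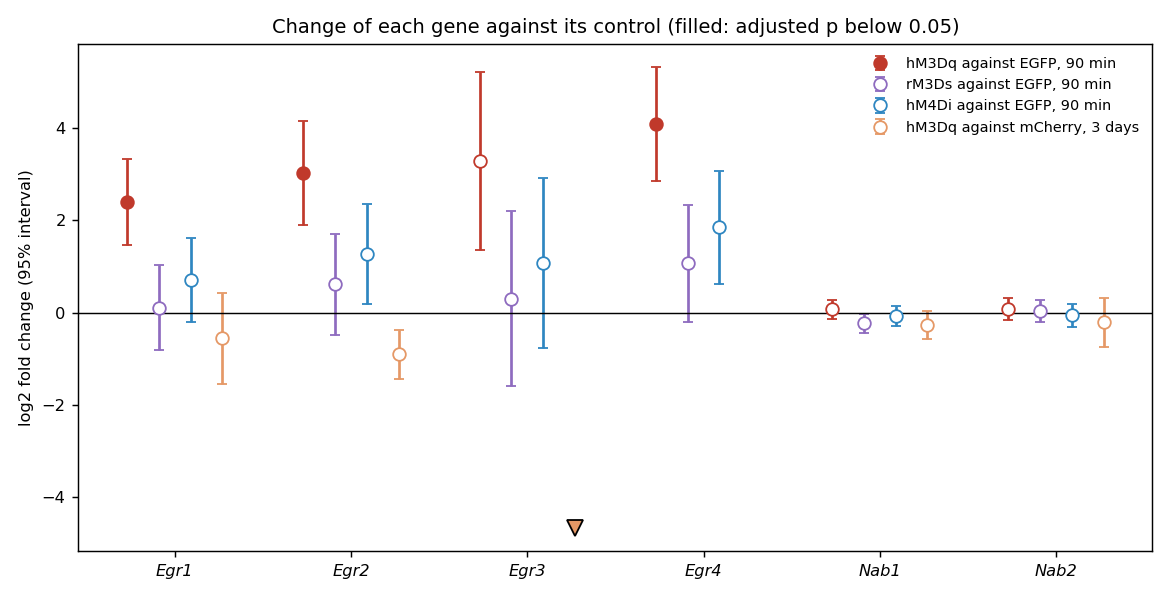
Log2 fold change of each member with its 95% interval in each receptor group over the control of the same time, with filled circles for adjusted p below 0.05 (edgeR). The filled circles are Egr1 (2.40), Egr2 (3.03) and Egr4 (4.08) for hM3Dq over EGFP, where the intervals of Nab1 and Nab2 include 0. The triangle for Egr3 at 3 days is a bound (-4.66), which was not called, and Egr4 was not tested there.

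Genes on the route to the Egr genes (SRF, its cofactors, ERK pathway and CREB kinases) did not pass the test in hM3Dq libraries, 0 of 21, with a median log2 fold change of 0.04 against -0.0034 for all genes tested. Srf itself averaged 83.7 ± 15.3 CPM with hM3Dq and 54.3 ± 3.06 CPM with EGFP (SD, n = 3 each), a log2 fold change of 0.66 ± 0.19 (SE) with an adjusted p of 0.276 by edgeR. Creb1 had a log2 fold change of 0.21. Of the genes for partners and modifiers of Egr and Nab proteins, among them the NuRD subunits, 0 of 20 tested passed, with Chd3 at -0.40 and Mta2 at 0.11 on the log2 scale.

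Among 45 genes reported elsewhere as Egr targets, 39 could be tested, 4 rose with hM3Dq, none fell and 35 did not pass. The median log2 fold change of the 39 was 0.15. Arc, a synaptic activity gene, averaged 11.4 ± 1.71 CPM with hM3Dq and 1.504 ± 0.762 CPM with EGFP (SD, n = 3 each), a log2 fold change of 2.93 ± 0.41 (SE, adjusted p = 0.00592, edgeR). The other 3 that rose were Flt1, a VEGF receptor, at 1.36, the growth factor gene Pdgfa at 0.51, and Ppp1r15a, a phosphatase subunit of the stress response, at 0.48 on the log2 scale. Flt1 is also an endothelial marker, and the 8 endothelial markers, Flt1 included, summed to 43.3 to 45.4 CPM in hM3Dq libraries and 19.0 to 35.5 CPM in EGFP libraries, without overlap, with 3 to 6 and 3 to 7 of them above the floor. Tek and Vwf, at log2 fold changes of 0.27 and 0.29, did not pass. Over all libraries Tek had 3.05 to 58.3 CPM, Flt1 4.05 to 22.2 CPM and Vwf 0.644 to 5.45 CPM. Pecam1, Cdh5, Kdr, Cldn5 and Emcn did not exceed 0.697 CPM in any library. The part of endothelial cells in the Flt1 value was not tested. None of 4 Egr2 myelin targets tested passed, with Prx, which encodes periaxin of the myelin sheath, at -0.51 and the myelin enzyme gene Cnp at -0.05.

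**Figure D4:**
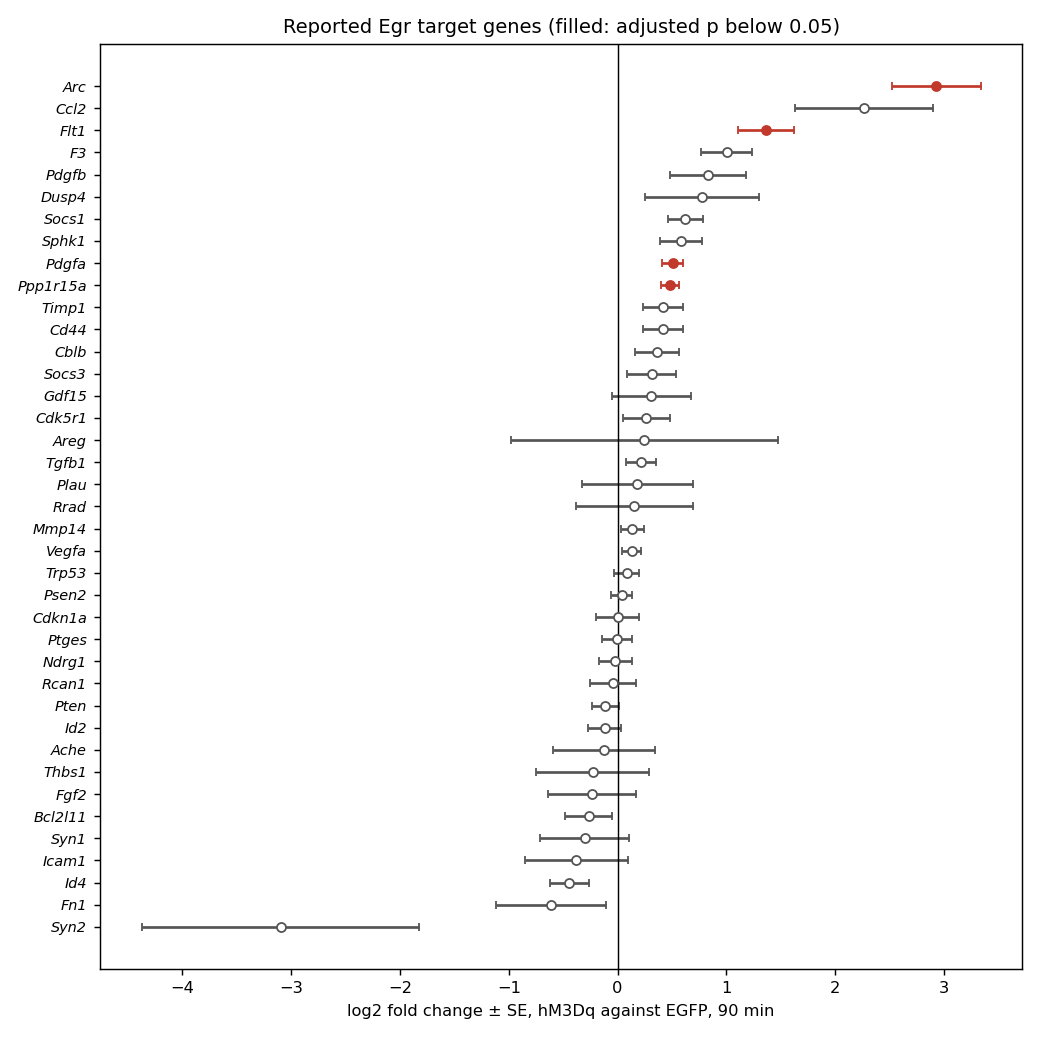
Log2 fold change ± SE of the 39 tested genes reported as Egr targets, hM3Dq over EGFP at 90 min, with filled points for adjusted p below 0.05 (edgeR). The 4 filled points are Arc, Flt1, Pdgfa and Ppp1r15a, between 0.48 and 2.93, and the other 35 points are open.

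Other immediate-early genes moved with the Egr genes in hM3Dq libraries, 12 of 20 rising with a median log2 fold change of 1.32. The 8 with the smallest p were the AP-1 genes Fosl1, Fos, Fosb and Junb, the stress factor Atf3, the orphan receptors Nr4a1 and Nr4a2, and Myc, between 1.29 for Junb and 3.57 for Fosb. Arc is in this list as well as among the targets. The 18 cell cycle genes had a median log2 fold change of -1.62 in this comparison with none passing. They summed to 749 CPM in EGFP 1 but to 146 and 132 CPM in EGFP 2 and 3, against 135 to 180 CPM in hM3Dq libraries. The median thus leaned on EGFP 1, and the part of these genes in the results was not tested.

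With rM3Ds, which signals through Gs, no member was called against EGFP. By edgeR 0.0147% of genes were called, and DESeq2 called 0.405% of genes and also no member. At an unadjusted p below 0.05 there was 1 member, Nab1, at -0.24 ± 0.09 (SE, log2, adjusted p = 1.00). Egr1 had 12.7, 12.4 and 8.86 CPM in rM3Ds 1, 2 and 3, within the EGFP range given above. The log2 fold changes were 0.11 ± 0.42 for Egr1 (95% interval -0.81 to 1.03), 0.61 ± 0.50 for Egr2, 0.31 ± 0.85 for Egr3, 1.06 ± 0.57 for Egr4 and 0.04 ± 0.11 for Nab2.

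The rM3Ds libraries were not alike. rM3Ds 1 had 7.24 CPM of Egr2, 3.97 of Egr3 and 1.499 of Egr4, while rM3Ds 2 and rM3Ds 3 had 2.93 and 2.30 CPM of Egr2, 1.73 and 1.15 of Egr3, and 0.395 and 0.498 of Egr4. rM3Ds 1 was thus the highest of its group for each of these, and rM3Ds 2 and 3 are the libraries that stood apart. Without rM3Ds 1 the log2 fold changes against EGFP were -0.04 for Egr2 and -0.35 for Egr3. Without EGFP 1, rM3Ds 2 and rM3Ds 3, where rM3Ds 1 is the lone library of its group and is assumed to vary like the others, they were 0.80 for Egr1, 1.31 for Egr2, 1.503 for Egr3 and 1.96 for Egr4, and no member passed. Of the 39 reported targets 0 passed, with the prostaglandin synthase gene Ptges at 0.46 (adjusted p = 0.749, edgeR) and Id4, an inhibitor of differentiation, at 0.47, and of the other immediate-early genes 1 of 20 rose, Nr4a2 at 1.84.

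With hM4Di, which signals through Gi, no member was called against EGFP either, and edgeR called 0% of genes, with 745 at an unadjusted p below 0.05. DESeq2 called 28 genes and no member. Egr2 and Egr4 were the 2 members whose hM4Di libraries all lay above the EGFP libraries, as did 4.34% of all genes, and the 2 with an unadjusted p below 0.05. Egr4 had 1.94, 1.12 and 1.04 CPM in hM4Di 1, 2 and 3, against 0.372, 0.577 and 0.175 CPM in EGFP 1, 2 and 3, a log2 fold change of 1.84 ± 0.55 (SE, adjusted p = 0.833, edgeR). Egr2 had 11.7, 3.75 and 4.07 CPM in hM4Di 1, 2 and 3, against 2.32, 3.11 and 2.69 CPM in EGFP 1, 2 and 3, a log2 fold change of 1.26 ± 0.49 (SE, adjusted p = 0.833, edgeR).

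A large part of the hM4Di values came from 1 library. hM4Di 1 was the highest of its group for all 4 Egr genes, with 27.0 CPM of Egr1 and 8.03 CPM of Egr3, and hM4Di 3 had 0.328 CPM of Egr3, the lowest of the 12 libraries. Relative to the mean of the 12 libraries, which include hM3Dq, hM4Di 1 was higher by 0.65, 0.98, 1.25 and 0.63 for Egr1, Egr2, Egr3 and Egr4 (log2). The median of the 20 other immediate-early genes in it was -0.27, also the highest of its group. That median was -0.46 and -0.63 in hM4Di 2 and 3, and -0.30, -0.69 and -0.80 in EGFP 1, 2 and 3. Without hM4Di 1, the log2 fold changes against EGFP were 0.19 for Egr1, 0.49 for Egr2, -0.07 for Egr3 and 1.48 for Egr4. Nab1 and Nab2 stood at -0.07 ± 0.09 and -0.06 ± 0.11 (SE, log2). Of the reported targets 0 of 39 passed, with the cytokine signalling inhibitor gene Socs1 at 0.49 and the protease inhibitor gene Timp1 at 0.50, and of the other immediate-early genes 0 of 20, with Myc at 0.60 and Fosb at 1.12.

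**Figure D5:**
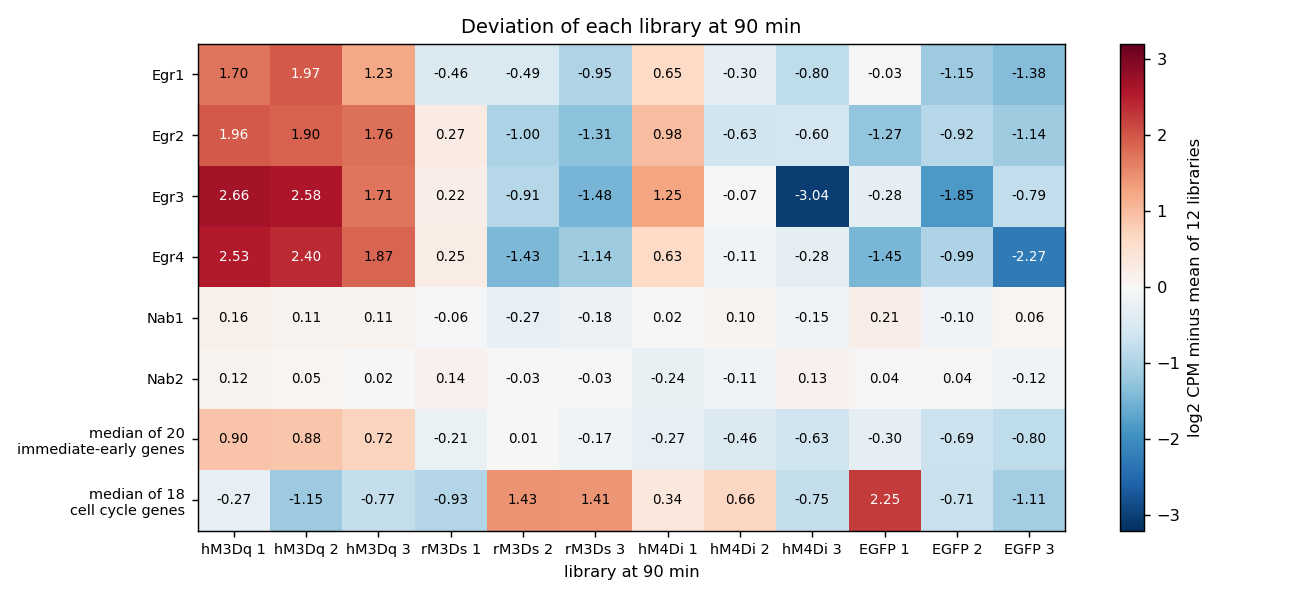
Heat map of log2 CPM minus the mean of the 12 libraries at 90 min, for each member and for the medians of 20 other immediate-early genes and 18 cell cycle genes, with libraries along 1 axis. The hM3Dq libraries are high for the 4 Egr genes and the immediate-early median (0.72 to 0.90). hM4Di 1 is high for the Egr genes (0.63 to 1.25) with an immediate-early median of -0.27, the highest of its group. EGFP 1 has the highest cell cycle median (2.25).

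Set directly against each other, hM3Dq exceeded rM3Ds for Egr1, at a log2 fold change of 2.30 ± 0.42 (SE, adjusted p = 0.0396, edgeR), and for Egr4, at 3.02 ± 0.52 (SE, adjusted p = 0.0293, edgeR). Of all genes 0.567% were called higher. Egr2, at 2.42 ± 0.49 (SE, adjusted p = 0.0575, edgeR), and Egr3, at 2.97 ± 0.86, did not pass. For 5 of the 6 members, all but Nab2, every hM3Dq library lay above every rM3Ds library, against 8.11% of all genes, and Nab1 was at 0.30 ± 0.09 (SE, adjusted p = 0.198, edgeR). Without EGFP 1, rM3Ds 2 and rM3Ds 3, which leaves 1 rM3Ds library assumed to vary like the others, no member passed, with Egr1 at 2.13 and Egr4 at 2.11. Leaving out rM3Ds 2, rM3Ds 3 or any hM3Dq library also left none, with log2 fold changes of 2.11 to 2.47 for Egr1 and of 2.68 to 3.19 for Egr4. Without rM3Ds 1, Egr1, Egr2 and Egr4 passed, at 2.38, 3.07 and 3.84, in a fit that called 4.27% of all genes. Of the reported targets, 3 of 39 were higher with hM3Dq (Flt1, Arc and Pdgfa, at 0.52 to 2.53) and 1 lower, Id4, at -0.92.

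Between hM3Dq and hM4Di no member passed by edgeR, while 0.802% of all genes did. The 4 Egr genes had an unadjusted p below 0.05. DESeq2 called 3 of them, Egr1, Egr2 and Egr4, and 3.09% of all genes. The log2 fold changes were 1.70 ± 0.41 for Egr1 (SE, adjusted p = 0.1003), 1.77 ± 0.48 for Egr2, 2.20 ± 0.82 for Egr3 and 2.24 ± 0.49 for Egr4 (adjusted p = 0.0710). For 5 members, all but Nab2, the hM3Dq libraries lay above the hM4Di libraries, as for 8.57% of all genes. Without hM4Di 1, Egr1 (2.22) and Egr2 (2.53) passed, as did 0.768% of all genes. Without the 3 libraries that stood apart, none of which is in either group, Egr1, Egr2 and Egr4 passed, as did 2.16% of all genes. Nab1 and Nab2 were at 0.14 ± 0.09 and 0.14 ± 0.11 (SE, log2). Flt1 (1.62) and Arc (2.26) were the reported targets called higher, 2 of 39, and 0 of 4 myelin targets passed.

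Between rM3Ds and hM4Di no member passed by edgeR, which called 0.0147% of all genes, or by DESeq2, which called 1.51%. By edgeR none had an unadjusted p below 0.05. The log2 fold changes were -0.60 for Egr1, -0.65 for Egr2, -0.77 for Egr3, -0.78 for Egr4, -0.16 for Nab1 and 0.10 for Nab2. The intervals were wide for the Egr genes, -1.502 to 0.31 for Egr1 and -2.60 to 1.05 for Egr3 (95%). Without hM4Di 1 the values were 0.11 for Egr2 and 0.38 for Egr3. The comparisons at 90 min share libraries, so their values for a member are not independent.

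Across the 12 libraries at 90 min, the Egr genes varied together (Pearson's r of log2 CPM, 0.80 to 0.96 between pairs), as a description of libraries that include the 3 hM3Dq libraries with the highest level of each. The genes whose pattern was most like that of Egr1, among 11906 compared, were Arc (0.980), Hmga1 (0.976), Dnajb1 (0.957), Hmga1b (0.954) and Septin9 (0.926), where Hmga1 and Hmga1b are near-identical and the split of reads between them is uncertain. For Egr2 they were Trib1 (0.958), Dusp5 (0.946), Tada2b (0.945), Hk2 (0.942) and Ier5 (0.935). For Egr3 they were Pkp2 (0.932), Egr1 (0.905), Rgs17 (0.897), Wdr1 (0.895) and Smg8 (0.894). For Egr4 they included Ier5 (0.962), Egr2 (0.962), Dusp5 (0.948) and Arc (0.934). The highest likeness to Nab1 was 0.894, with Wdfy1, and to Nab2 0.911, with Col6a2, and r between Nab1 and Nab2 was -0.01.

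At 3 days the hM3Dq cultures no longer had more of any Egr gene than their control, and Egr3 was listed at 0 in all 3. No member passed the test against mCherry, 0 of 5 tested, where edgeR called 0% of 12807 genes and had 1540 at an unadjusted p below 0.05. At that level there were 2 members, Egr2 and Egr3, and DESeq2 called 156 genes, Egr3 among them. Every hM3Dq library lay below every mCherry library for the same 2 members, as for 16.2% of all genes.

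Egr3 had estimated counts of 0, 0 and 0 in hM3Dq 1, 2 and 3, against 59.1, 65.5 and 91.3 in mCherry 1, 2 and 3, or 3.201, 3.95 and 5.18 CPM. It was the 1 gene of 22078 with 0 in these 3 hM3Dq libraries and more than 20 counts in each mCherry library, and Gvin1 was the 1 gene with the reverse pattern. Against a floor of 3 counts per library, Egr3 was at least 25.3-fold lower with hM3Dq than with mCherry. By edgeR it ranked 1 among the genes tested (unadjusted p = 9.87e-06), with an adjusted p of 0.126 by edgeR and 1.63e-08 by DESeq2. That Egr3 had 0 in these libraries was known when the members were taken. The pattern, the rank and the p-values thus describe that known value and are no separate support for it. The Egr3 estimates are not whole numbers in 14 of the 18 libraries, and whether reads of Egr3 were assigned elsewhere in the libraries at 0 was not tested.

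Egr2 had 3.76, 2.85 and 3.53 CPM in hM3Dq 1, 2 and 3 at 3 days, against 4.61, 7.84 and 6.91 CPM in mCherry 1, 2 and 3. All hM3Dq libraries lay lower, with a log2 fold change of -0.90 ± 0.23 (SE, adjusted p = 0.256, edgeR). Egr1 had 16.8, 16.7 and 14.9 CPM in hM3Dq 1, 2 and 3, against 28.5, 35.6 and 8.61 CPM in mCherry 1, 2 and 3. The hM3Dq libraries lay close together between mCherry 3 and the other controls, with a log2 fold change of -0.56 ± 0.43 (SE, adjusted p = 0.563, edgeR). Egr4 was too low to be tested, at 0.508, 0.116 and 0.321 CPM with hM3Dq and 0.704, 0.241 and 0.283 CPM with mCherry.

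Nab1 averaged 54.9 ± 5.78 CPM with hM3Dq and 67.2 ± 10.3 CPM with mCherry (SD, n = 3 each), a log2 fold change of -0.26 ± 0.13 (SE, adjusted p = 0.447, edgeR). Nab2 had 182, 178 and 144 CPM in hM3Dq 1, 2 and 3, against 232, 237 and 126 CPM in mCherry 1, 2 and 3, where mCherry 3 again lay lowest of the controls. Its log2 fold change was -0.21 ± 0.23 (SE, adjusted p = 0.670, edgeR), and that of Stat6 was 0.15 ± 0.09.

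These values turned on mCherry 3, the library that stood apart. Without it, 4 of the 5 members tested were called lower, Egr1 at -0.96 ± 0.10 (SE, adjusted p = 0.000124, edgeR), Egr2 at -0.83 (adjusted p = 0.0281, edgeR), Egr3 (adjusted p = 2.17e-05, edgeR) and Nab2 at -0.45 ± 0.09 (SE, adjusted p = 0.00938, edgeR). In that fit 5.58% of all genes were called lower. Of the reported targets 0 of 34 tested passed with all 6 libraries, with the tissue factor gene F3 at 0.34 and the growth factor gene Areg at -1.17, and of the other immediate-early genes 0 of 18, with Nr4a3 at 1.76 (adjusted p = 0.199, edgeR) and Nr4a1 at 0.98.

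The hM3Dq effect, each against its own control, was smaller at 3 days than at 90 min for 3 members. The difference in log2 fold change was -3.92 ± 0.29 (SE) for Egr2, with an adjusted p of 5.50e-05 by edgeR, as 3 days had -0.90 and 90 min had 3.03. For Egr4 it was -4.41 ± 0.77 (SE, adjusted p = 0.0317, edgeR), with levels at 3 days on either side of the floor. Egr3 was called lower as well (adjusted p = 0.000239, edgeR), but its fitted value rests on the libraries at 0 and gives no size. Those zeros were known when the members were taken, so the Egr3 call is no separate support for them. Of all genes 0.381% were called lower.

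Egr1 had a difference of -2.95 ± 0.65 (SE, adjusted p = 0.108, edgeR), and it passed without EGFP 1 (-3.49) and without mCherry 3 (-3.35). Egr2 passed without any 1 of the 12 libraries. So did Egr3, but this restates its known zeros and is no separate support for them. Egr4 lost its call without hM3Dq 2, hM3Dq 3 or mCherry 1 at 3 days and without any hM3Dq library or EGFP 3 at 90 min, at differences of -4.59 to -3.77. Nab1 and Nab2 were at -0.33 ± 0.17 and -0.28 ± 0.27 (SE), with adjusted p values of 0.579 and 0.738 (edgeR). Of the reported targets 2 of 39 were lower by this measure, Arc at -4.25 and Flt1 at -1.56, and of the other immediate-early genes 7 of 20.

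The means of the controls themselves differed between the times, though no test compared them. The mCherry libraries at 3 days averaged 24.3 ± 14.0 CPM of Egr1, 6.45 ± 1.67 of Egr2 and 4.11 ± 0.997 of Egr3. EGFP libraries at 90 min averaged 10.3 ± 5.31 CPM of Egr1, 2.71 ± 0.396 of Egr2 and 1.82 ± 0.891 of Egr3 (SD, n = 3 each). For Egr1 the controls overlapped, with mCherry 3 at 8.61 CPM and EGFP libraries at 6.73 to 16.4 CPM. Nab1 and Nab2 averaged 67.2 ± 10.3 and 198 ± 62.9 CPM in mCherry libraries at 3 days, against 89.8 ± 7.89 and 285 ± 15.2 CPM in EGFP libraries at 90 min. The control protein changes with the time, and so does the table of counts, with 55.9% of values fractional at 90 min and 30.5% at 3 days. The time after stimulation, the control plasmid and any difference between the tables thus cannot be told apart in these levels.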

How the data were processed

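RNA was measured in 18 libraries of cultured astrocytes, 3 in each of 6 groups. The authors deposited estimated counts for each gene without normalisation, 12 libraries at 90 min in 1 table and 6 at 3 days in another. Of these values 55.9% at 90 min and 30.5% at 3 days were fractional. The mm39 build and the tools Salmon 1.8.0 and fastp 0.23.4 appear, without order or role, in the submitters' processing notes. How transcripts were summed to genes and whether counting used strand are not given in the sources used here.

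The estimated counts were rounded and tested with edgeR 4.0.16 in R 4.3.3 (quasi-likelihood, robust, TMM, default filter on low counts), with Benjamini-Hochberg adjustment over all genes tested and a threshold of 0.05. The 4 groups at 90 min were fitted together (8 residual degrees of freedom), the 2 groups at 3 days alone (4), and the difference of times as an interaction over 12 libraries (8). Intervals (95%) use the t quantile of the fit. CPM is the estimated count per 1000000 of the library's total, and exon lengths are of GENCODE on GRCm38. Likeness used log2 CPM with a prior count of 2 over genes averaging at least 1. Symbols matched 21978 of 22078 identifiers. Alternatives were DESeq2 1.42.0, RLE size factors, no filter, a replicate block, only the compared groups, and leaving out libraries. The fits were tested on simulated data. The members, the 13 gene lists and the alternatives were chosen with earlier results of these data known. All 6 members are named in each comparison, and of every other list the called genes, up to 8 by smallest p against a control, or the 2 with the smallest p where none was called, with up to 5 genes by likeness. A few genes are not reported here. Replicate numbers met the bar for pairing (each pair's correlation over 0.1) between hM3Dq and EGFP at 90 min and in no other comparison, and the block kept the 3 calls there.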

Additional observations from a re-analysis of the deposited data

Results flagged for a closer look

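The effect of hM3Dq against its own control differed between the times for 3 members by the interaction test of edgeR. The effect at 3 days minus that at 90 min was -3.92 for Egr2, with 3 of 3 hM3Dq libraries below the controls at 3 days and 3 of 3 above them at 90 min. It was -4.41 for Egr4, whose libraries overlapped at 3 days near the floor. The fitted value was -12.5 for Egr3, which rests on 3 libraries at 0 and is no bound. Those zeros were known when the members were taken, so the Egr3 call is no separate support for them. The control was mCherry at 3 days and EGFP at 90 min, and the times came in separate tables. Time, control plasmid and any difference between the tables thus cannot be told apart.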

How the results depend on the processing

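Of 584 alternatives for single members, 1 has no value to be set against (Egr4 at 3 days), 507 kept the direction and the side of the threshold, 33 lost a call, 26 gained one and 17 changed direction. No scaling moved the median of all genes by over 0.1 (log2). Members called with 1 library left out numbered 1 to 2 for hM3Dq against EGFP, where 0.362% to 0.748% of all genes were called. For hM3Dq they numbered 0 to 3 against rM3Ds (0.204% to 4.27% of all genes), 0 to 2 against hM4Di (0.275% to 0.768%) and 0 to 4 against mCherry (0% to 9.72%). There were 2 to 4 for the difference of times (0.207% to 1.26%), and 0 in the other comparisons (0% to 2.83%). DESeq2 called 4 members for hM3Dq against rM3Ds (3.41% of all genes), 3 against hM4Di (3.09%) and 1 against mCherry (1.22%). No filter on low counts gave 1 for hM3Dq against rM3Ds (Egr4, with 0.478% of all genes called). It gave 1 against mCherry (Egr3, adjusted p = 0.00962, with 0.0061% of all genes called), where Egr4 became testable (-0.32). Fitting only the compared groups gave 1 for hM3Dq against hM4Di, with 1.14% of all genes called. Without the libraries that stood apart there were 0 for hM3Dq against rM3Ds and 3 against hM4Di.

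Changes of direction were confined to values that had not passed. With 1 library left out, rM3Ds against EGFP ranged from -0.13 to 0.65 for Egr1, -0.0435 to 0.91 for Egr2, -0.35 to 0.72 for Egr3 and -0.0192 to 0.0793 for Nab2, hM4Di against EGFP from -0.0738 to 1.63 for Egr3, -0.13 to 0.0141 for Nab1 and -0.17 to 0.0138 for Nab2, hM3Dq against rM3Ds from -0.0017 to 0.0950 for Nab2, and rM3Ds against hM4Di from -1.32 to 0.11 for Egr2 and -1.44 to 0.38 for Egr3. Without the libraries that stood apart, rM3Ds against hM4Di was 0.14 for Egr2, 0.0084 for Egr3 and 0.12 for Egr4, and Nab2 was -0.0781 for hM3Dq against rM3Ds. The causes were not tested.

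Replicate numbers are not stated to mark a shared culture, and the deviations of same-numbered libraries correlated at -0.76 to 0.37 over 18 pairs at 90 min and at 0.02 to 0.04 over 3 pairs at 3 days, where 3 of 3 were best with their own number. For hM3Dq against EGFP the 3 pairs correlated at 0.123 to 0.162, each best with its own number, and with the replicate block 66 genes were called in place of 107, with Egr1 (2.504, adjusted p = 0.00326), Egr2 (adjusted p = 0.0173) and Egr4 (adjusted p = 0.00440) among them. That block spans all 4 groups, and the pairs of rM3Ds with EGFP correlated at -0.76 to -0.57. With the replicate block, 1 member passed for hM3Dq against hM4Di (Egr1, adjusted p = 0.0221) in place of 0, and 3 in place of 2 for hM3Dq against rM3Ds. The block called 0.449% and 0.39% of all genes in these 2 comparisons. Depth limits Egr4, at 0.116 to 1.94 CPM outside the hM3Dq libraries at 90 min. Egr3 was at 0 in the 3 hM3Dq libraries at 3 days. Their totals were 17.2 to 19.7 M, against 16.6 to 18.5 M in mCherry libraries, and the cause of the zeros was not tested.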
